A study of Mus musculus with 21 samples.

Results

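The 77 genes described here encode the mitochondrial ribosomal proteins. They are all symbols of the deposited count tables that start with Mrpl or Mrps followed by a number, and they were 77 of 24391 gene symbols. Of these, 48 carry a large subunit symbol (Mrpl) and 29 a small subunit symbol (Mrps). They lie on 17 chromosomes. RNA had been sequenced from the brain, liver and skin of 2 heterozygous Jak1 knock-in mice (KI, labelled Jak1 KI +/-) and 5 wild-type mice (WT), 1 library per mouse and tissue, 21 libraries in all. The KI allele was made by CRISPR-Cas9 and its genotype was given as Jak1H595D/+;I596I/+;Y597Y/+, that is a missense change (H595D) with 2 silent changes (I596I and Y597Y) on 1 allele. All mice were C57BL/6 newborns at P0. The change is carried in every cell, so each tissue was taken from a mouse in which all other tissues carried it too. The study described KI mice as seeming small at birth.

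Mitochondria keep their own ribosome, which translates the few messenger RNAs of the mitochondrial genome, all of them for subunits of the respiratory chain and the ATP synthase. Its RNAs are mitochondrial, but every one of its proteins is encoded in the nucleus, made in the cytosol and imported. Part of them descend from the ribosome of the bacterial ancestor and others were added later. Of the 77 genes, 48 encode a protein with a counterpart in the bacterial ribosome and 29 do not. The symbol does not always give the place of the protein: the products of Mrps18a and Mrps30 are now placed in the large subunit and that of Mrps36 in the 2-oxoglutarate dehydrogenase complex. The brain depends strongly on respiration. The question followed here is whether these genes differed between KI and WT mice in each tissue, and how their levels compared among WT tissues.

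The start regions of the 3 genes with the most negative brain fold change are shown first, because transcription of the genes for mitochondrial proteins is known to be driven by the factors NRF1, GABPA and YY1. Each is the RefSeq sequence on GRCm38.p6, from 180 bases before to 20 bases from the start of transcription, written in the direction of transcription. Capitals mark the 8 bases that match the GABPA motif CCGGAAGT on either strand. They are Mrpl33 at chr5:31613771-31613970 on the plus strand, Mrps18c at chr5:100798579-100798778 on the plus strand and Mrps33 at chr6:39810917-39811116 on the minus strand.
Mrpl33: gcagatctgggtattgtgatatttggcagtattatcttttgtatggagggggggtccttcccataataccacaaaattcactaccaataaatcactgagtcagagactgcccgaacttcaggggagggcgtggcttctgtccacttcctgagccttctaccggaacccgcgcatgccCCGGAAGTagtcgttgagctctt
Mrps18c: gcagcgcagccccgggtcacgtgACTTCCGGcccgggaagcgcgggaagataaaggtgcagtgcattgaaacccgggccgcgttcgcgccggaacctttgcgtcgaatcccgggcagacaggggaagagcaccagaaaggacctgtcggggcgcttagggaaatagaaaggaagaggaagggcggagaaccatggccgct
Mrps33: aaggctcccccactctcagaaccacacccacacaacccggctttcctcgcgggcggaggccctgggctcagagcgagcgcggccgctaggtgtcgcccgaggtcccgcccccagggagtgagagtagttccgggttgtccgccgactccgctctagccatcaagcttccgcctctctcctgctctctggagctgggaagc

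In Mrpl33 the GABPA motif lay on the strand printed from 3 bases before the start, and in Mrps18c it lay on the opposite strand from 157 bases before it. No NRF1 (CGCATGCG), GABPA or YY1 (AAGATGGCG) motif was found in the Mrps33 stretch, which says only that these letters were not there. RefSeq windows of 300 bases, 250 before and 50 after the start, were at hand for 68 of the 77 genes, in 74 windows, and both strands were searched for exact matches. The GABPA motif was in 12 member windows (16.2%), against 6.51% of the windows of genes tested in the brain and 3.89% of all windows. The YY1 motif was in 8 (10.8%), against 2.43% and 1.4%, and the NRF1 motif in 7 (9.46%), against 3.27% and 1.87%. The median brain log2 fold change (KI over WT) was -0.63 for the 26 genes with any of the 3 motifs and -0.61 for the 42 without. By motif it was -0.35 with and -0.67 without NRF1 (7 and 61 genes), -0.73 and -0.61 for GABPA (12 and 56) and -0.62 and -0.65 for YY1 (8 and 60).

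Between 26549326 and 38388133 counts fell on genes per library, and all 77 genes passed the filter on low counts in every comparison. Over the genes, the median of the lowest count in any library was 956 for brain, 679 for liver and 1008 for skin. Mrps36 was the shallowest, with 13 counts in 1 liver library, so its values are imprecise. The kit (TruSeq RNA v2) keeps no strand, so reads of a shared stretch cannot be told apart. By whole gene spans 32 of the 77 genes overlap another annotated gene, 22 of them a protein-coding one. Whether they share exons was not examined. Reads marked ambiguous were left out of the counts, and the effect of overlap on the counts of a gene was not tested. Libraries KI 2 and WT 3 held reads of Y-linked genes in all 3 tissues, so sex was mixed in both genotypes. The brain library of WT 5 stood apart from the other WT brains, and the main brain results are given with and without it. The KI and WT mice are separate animals, but 2 KI mice leave the spread within that genotype poorly known. The study reported lower RNA integrity numbers for the skin samples than for its other samples. The part of this in the skin results and in the comparisons with skin was not tested. In whole tissue, fewer cells of a type and less RNA per cell cannot be told apart.

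The tissue labels were checked against marker genes. All 8 neuron markers were above 1 CPM (the counts-per-million scale, relative to counts on genes) in both brain groups, with a sum of 4582 and 5139 CPM in the 2 KI brains and 5002 to 6203 CPM in the WT brains. The radial glia and astrocyte markers, 6 of 6 above 1 CPM, summed to 1829 and 1877 CPM in the KI brains and to 2391 to 4160 CPM in the WT brains. Of these 6 markers 4 had a positive log2 fold change (KI over WT), whose median was 0.08 and lowest value -1.20, and their median log2 CPM was 6.78 and 6.87 in the KI brains and 6.62 to 7.10 in the WT brains. The hepatocyte list summed to 752 and 827 CPM in the KI brains, inside the range of 28.6 to 2032 CPM of the WT brains, of which WT 5 was the highest. Only 3 of its 7 genes were above 1 CPM in either brain group, so these sums rested on few genes. The median over the 7 genes of log2 CPM (with 1 added) was 0.07 and 0.26 in the KI brains. In the WT brains it was 0.24 to 1.68, and WT 5 was at 0.33. The part of these differences in the results below was not tested.

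In the brain, transcripts of the mitochondrial ribosome were lower in both KI mice as a group of genes, while edgeR's quasi-likelihood test on the 7 libraries called no single gene. Summed over the 77 genes, the 2 KI brains held 2475 and 2354 CPM. The WT brains 1 to 5 held 3665, 3290, 3089, 3059 and 5349 CPM. Both KI brains thus lay below every WT brain, with means of 2414 ± 86.0 CPM (SD, n = 2) and 3690 ± 958 CPM (SD, n = 5), and much of the WT spread came from WT 5. In each KI brain 75 of the 77 genes were below the WT median. The WT brains 1 to 5 had 7, 32, 55, 57 and 3 genes below it, so WT 3 and WT 4 lay nearest to the KI brains.

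**Figure D1:**
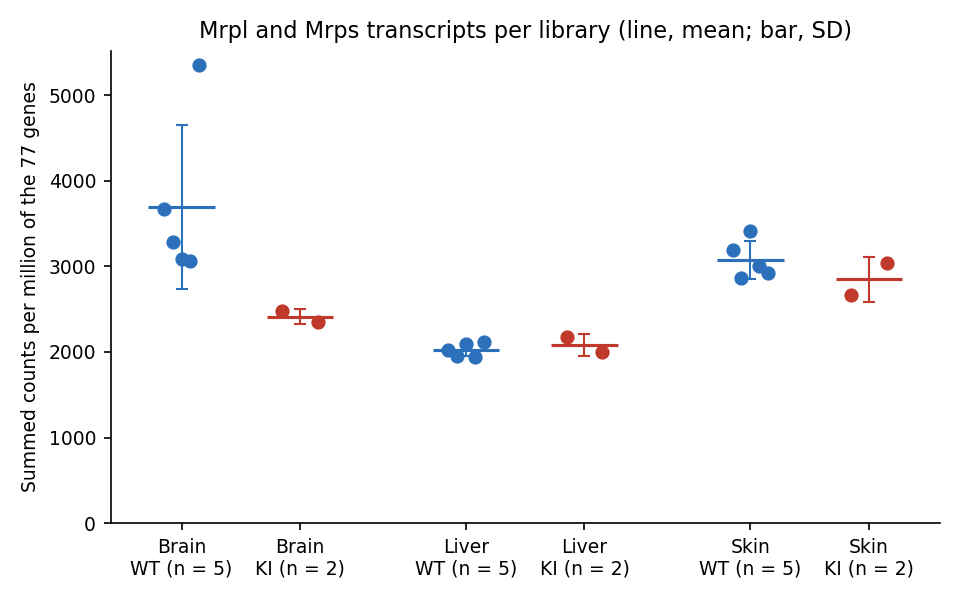
Summed CPM of the 77 genes in each of the 21 libraries, by tissue and genotype, with the mean as a line and the SD as a bar. Only in the brain do both KI libraries (2475 and 2354) lie below all WT libraries, the highest of which is WT 5 (5349).

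Of 16322 genes tested by edgeR's quasi-likelihood test in the brain, 0.0% were called lower and 0.0% higher at an adjusted p under 0.1, and 0 of the 77 were called. At an unadjusted p under 0.05, 37 of the 77 (48.1%) were lower, against 7.81% of all genes tested, and 0 were higher, against 2.8%. DESeq2's Wald test called 21 lower at an adjusted p under 0.1, against 3.03% of the genes it gave an adjusted p, and an edgeR fit of all 21 libraries called 24, against 2.44%. In 68 of the 77 genes (88.3%) both KI brains were below all WT brains, against 15.8% of all genes tested. The log2 fold change was below 0 in 76 of 77 (98.7%), against 52.8%, and its median was -0.63, against -0.02 over all genes tested.

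Without WT 5, 36 of the 77 genes were called lower (46.8%, against 6.32% of all genes tested) and 0 higher. The median was then -0.40 and 75 of 77 were below 0, against 49.2% of all genes. Whether genes were called thus changed with this 1 library, and the median difference was smaller without it. Leaving out either KI mouse kept 1 KI brain, so for those fits only the size of the effect is given. Over the mice left out in turn the median of the 77 genes ran from -0.69 to -0.40. With WT 1 to 4 only, both KI brains were below all WT brains in 69 of 77 genes (89.6%), against 19.8% of all genes tested.

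All 48 large subunit genes had negative log2 fold changes in the brain, with a median of -0.64, and 27 had an unadjusted p under 0.05 (all genes tested: 52.8% below 0 and 7.81% lower at that p). The most negative was Mrpl33 (chromosome 5, 31899308 to 32004345, plus strand, in NCBIM37), which encodes the counterpart of bacterial protein L33. It was at 28.1 and 26.5 CPM in the KI brains and at 71.2, 53.4, 48.9, 47.2 and 98.3 CPM in the WT brains 1 to 5. The groups did not overlap, and WT 5 was the highest. Its log2 fold change was -1.22 ± 0.31 (SE), with an adjusted p of 0.270, and without WT 5 it was -0.997 with an adjusted p of 0.0363. The span of Mrpl33 overlaps those of Bre and Rbks, and the effect of this on its counts was not tested.

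Mrpl52 (chromosome 14, 55045746 to 55048587, plus strand) encodes a protein with no bacterial counterpart. It stood at 54.1 and 47.6 CPM in the KI brains and at 101, 98.3, 75.2, 78.1 and 214 CPM in the WT brains 1 to 5. Its groups did not overlap either, and WT 5 was far above the other WT brains. The log2 fold change was -1.15 ± 0.42, with an adjusted p of 0.399, and without WT 5 it was -0.77 with an adjusted p of 0.0365.

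Mrpl20 (chromosome 4, 155177645 to 155183885, plus strand) and Mrpl32 (chromosome 13, 14702568 to 14705304, minus strand) encode counterparts of bacterial L20 and L32. The L32 protein is processed by the inner membrane m-AAA protease before it joins the ribosome. Mrpl20 was at 71.2 and 60.5 CPM in the KI brains and at 150, 129, 111, 111 and 150 CPM in the WT brains. Mrpl32 was at 21.003 and 15.6 CPM in the KI brains and at 47.3, 36.5, 37.1, 30.2 and 37.2 CPM in the WT brains. In neither gene did the groups overlap, and in neither was WT 5 apart from the other WT brains. Their log2 fold changes were -0.98 ± 0.18 and -1.04 ± 0.21, each with an adjusted p of 0.255. Without WT 5 they were -0.91 and -1.03, with adjusted p of 0.0363 and 0.0374 by edgeR, and DESeq2 gave 0.00137 and 0.00299 on all 7 libraries.

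Mrpl40 (chromosome 16, 18872111 to 18876860, minus strand) lies in the mouse region that matches human 22q11.2, whose deletion affects brain development. It was at 27.4 and 29.2 CPM in the KI brains and at 45.6, 42.7, 37.3, 37.4 and 40.1 CPM in the WT brains. Both KI brains were below all WT brains. The log2 fold change was -0.52 ± 0.14, with an adjusted p of 0.292, and 0.0521 without WT 5.

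The large subunit genes with the smallest differences were Mrpl38 and Mrpl37. Mrpl38 was at 41.8 and 36.6 CPM in the KI brains and at 39.9, 38.5, 37.3, 38.6 and 61.5 CPM in the WT brains. Apart from WT 5 the libraries of both genotypes were interleaved, and its log2 fold change of -0.14 ± 0.22 changed sign without WT 5. Mrpl37 was at 54.4 and 51.6 CPM in the KI brains, against 56.1, 55.1, 56.7, 57.2 and 82.1 CPM, and its log2 fold change was -0.21 ± 0.19, and -0.068 without WT 5.

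Of the 29 small subunit genes, 28 had negative log2 fold changes, with a median of -0.61, and 10 had an unadjusted p under 0.05, against the same 52.8% and 7.81%. Mrps18c (chromosome 5, 101227646 to 101233490, plus strand) is one of the mammalian counterparts of bacterial S18. It was at 12.7 and 9.32 CPM in the KI brains and at 28.4, 29.3, 20.7, 19.5 and 30.2 CPM in the WT brains. Its log2 fold change was -1.22 ± 0.26, with an adjusted p of 0.258, and without WT 5 it was -1.14 with an adjusted p of 0.0380. The groups did not overlap, and WT 5 was close to WT 1 and WT 2.

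Mrps33 (chromosome 6, 39751803 to 39760987, minus strand) encodes a protein found in the mitochondrial but not the bacterial small subunit. It was at 5.41 and 5.63 CPM in the KI brains and at 16.2, 12.0, 10.3, 11.19 and 13.1 CPM in the WT brains, with no overlap. Its log2 fold change was -1.19 ± 0.24, with an adjusted p of 0.255 and of 0.0374 without WT 5. Mrps14 (chromosome 1, 162125346 to 162132301, plus strand), the counterpart of bacterial S14, was at 24.3 and 23.4 CPM in the KI brains and at 68.2, 44.3, 47.5, 35.2 and 53.0 CPM in the WT brains. The KI brains were again below all WT brains. The log2 fold change of Mrps14 was -1.06 ± 0.25, with an adjusted p of 0.270 and of 0.0513 without WT 5.

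Mrps2 (chromosome 2, 28323586 to 28326698, plus strand), the counterpart of bacterial S2, was the 1 gene with a log2 fold change above 0. It was at 35.5 and 35.0 CPM in the KI brains and at 29.1, 27.4, 29.1, 35.1 and 40.4 CPM in the WT brains. The groups overlapped, and the log2 fold change was 0.13 ± 0.18 with an adjusted p of 0.837, and without WT 5 it was 0.24 with an adjusted p of 0.276. Mrps18b, another S18 counterpart, had KI brains at 9.18 and 8.77 CPM inside the WT range of 6.98 to 11.23 CPM, and Mrps5 had -0.16 ± 0.16. Mrps36 (chromosome 13, 101505910 to 101514614, minus strand) was below 2 CPM in every brain, with a log2 fold change of -0.67 ± 0.33 and an adjusted p of 0.522.

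**Figure D2:**
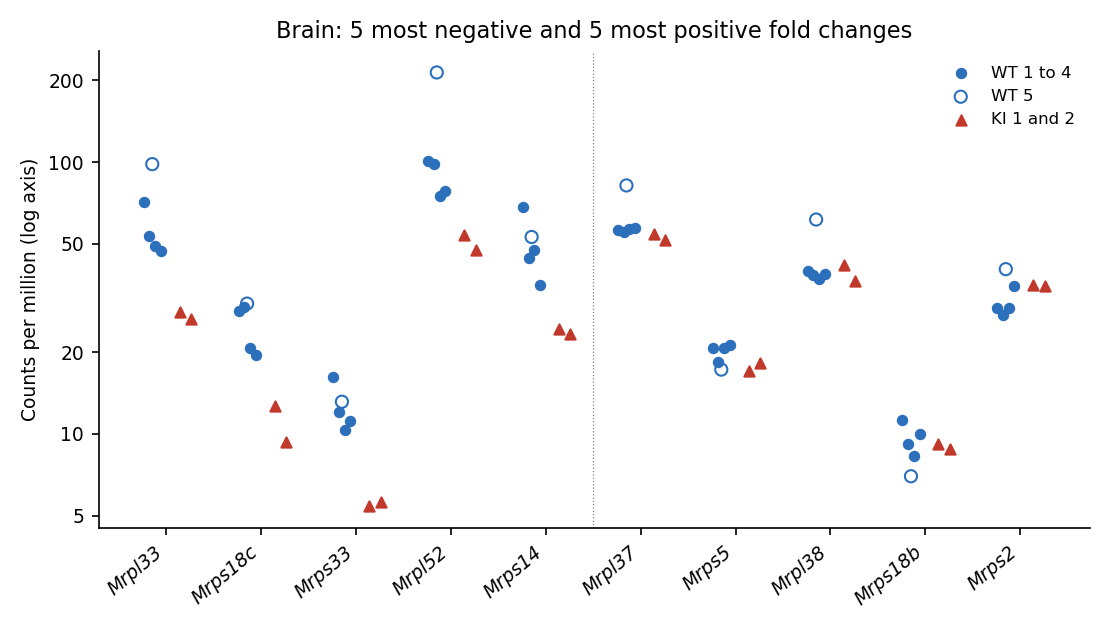
CPM (log axis) in each brain library for the 5 genes with the most negative and the 5 with the most positive log2 fold change, KI libraries beside WT libraries. In the 5 most negative genes both KI points lie below all WT points, and in Mrps2, Mrps18b and Mrpl38 the genotypes overlap.

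Genes with a bacterial counterpart (median log2 fold change -0.63 over 48 genes) and those without (-0.53 over 29 genes) both had negative medians, and the difference between them was not tested. The fold change did not follow the WT brain level across the 77 genes (Spearman's rho 0.014, genes of the same libraries, a description).

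The genes are short, and in these brains short genes as a whole were lower in KI. Coding length had a median of 579 bases in the 77 genes and of 1401 bases in the genes tested in the brain. Genes with a transcript under 1000 bases took 3.71% and 3.50% of the counts of the KI brains and 6.14%, 5.42%, 4.90%, 4.76% and 7.95% of those of the WT brains 1 to 5. The order of these shares among the brains is the order of the summed level of the 77 genes. Under 600 coding bases, all 40 of the 77 genes there were below 0 with a median log2 fold change of -0.73, and the 1834 genes of that length had a median of -0.49. From 600 to 1000 coding bases, 24 of 25 were below 0 with a median of -0.56, against -0.21 in the 2797 genes. From 1000 to 1400 coding bases, 12 of 12 were below 0 with a median of -0.35, against -0.08 in the 2941 genes.

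Within each coding length class the 77 genes were therefore lower than genes of like length by their medians, and the distance was smaller than against all genes. By transcript length the 77 genes were also lower in each class. The medians were -0.78 in 27 of the 77 under 1000 bases, against -0.65, and -0.45 in 31 from 1000 to 2000 bases, against -0.27. From 2000 bases up, 19 of the 77, Mrpl33 and Mrps14 among them, had a median of -0.64 against 0.07. In that class the distance was not smaller than against all genes. With each library corrected for coding length, a setting chosen after seeing the data, the median was -0.35, against -0.06 over all genes tested. Under it 0 genes were called, 26 (33.8%) were lower at an unadjusted p under 0.05, against 5.78%, and 74 of 77 were below 0, against 59.1%. Correction by transcript length gave a median of -0.31 with 26 lower at an unadjusted p under 0.05, against 6.58%, and 71 of 77 below 0, against 59.4%. With the coding length correction and without WT 5, 19 genes were called lower (24.7%), against 3.4% of genes tested, and 0 higher, with a median of -0.22. Under that setting Mrpl33 was at -0.59 with an adjusted p of 0.0631, Mrps18c at -0.84 with 0.0696 and Mrps33 at -0.74 with 0.0796.

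**Figure D3:**
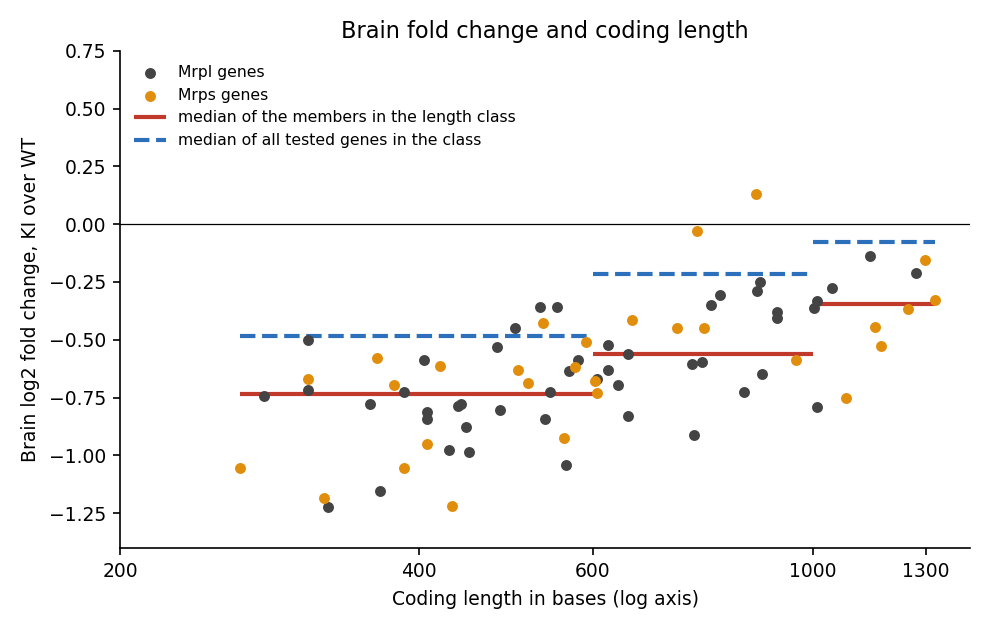
Brain log2 fold change, KI over WT, of the 77 genes against coding length in bases (log axis), beside the median of all tested genes in each length class. The 77 genes lie mostly below the medians of genes of like length, which are -0.49, -0.21 and -0.08 from the shortest class up.

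Other parts of mitochondrial translation were followed as lists chosen with earlier results of these data known. With all 7 libraries, edgeR called no gene of these lists in the brain. Of all genes tested, 52.8% were below 0 and 7.81% were lower at an unadjusted p under 0.05. Without WT 5, 49.2% of all genes tested were below 0 and 6.32% were called lower. The 6 proteins of the mitochondrial ribosome without an Mrp symbol were all below 0, with a median log2 fold change of -0.45, and -0.19 without WT 5, when 2 were called lower. Among them Chchd1, a small subunit protein, was at 51.4 and 46.9 CPM in the KI brains and at 76.1 to 158 CPM in the WT brains (-1.14 ± 0.29, adjusted p 0.270). Of 21 assembly factors 20 were below 0, with a median of -0.28, and 16 without WT 5, with a median of -0.15 and 2 called lower. With all libraries 3 were lower at an unadjusted p under 0.05, among them Mterf3 (-0.75 ± 0.23), a regulator of mitochondrial transcription and ribosome assembly.

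The lists of factors that act with the ribosome had medians nearer to 0. Of 12 translation factors 8 were below 0, with a median of -0.16 and 0 at an unadjusted p under 0.05, and without WT 5 the median was -0.10 with 0 called. Of 20 mitochondrial aminoacyl-tRNA synthetases 13 were below 0, with a median of -0.08, and without WT 5 it was -0.035 with 1 called lower and 1 higher. In that list Lars2, the leucyl-tRNA synthetase, was higher, at 390 and 446 CPM in the KI brains and at 165 to 265 CPM in the WT brains (0.87 ± 0.19, adjusted p 0.263). Of 13 regulators of mitochondrial gene expression 6 were below 0, with a median of 0.07, and without WT 5 there were 7, with a median near 0 and 1 called lower. Slirp, which stabilises mitochondrial messenger RNAs, was at 24.7 and 19.9 CPM in the KI brains and at 41.5 to 72.6 CPM in the WT brains (-1.32 ± 0.25, adjusted p 0.255). Tfam, which packages and transcribes mitochondrial DNA, had -0.32 ± 0.16. With the coding length correction 12 of 12 translation factors (median -0.18), 21 of 21 assembly factors (-0.27), 16 of 20 synthetases (-0.16) and 9 of 13 regulators (-0.087) were below 0, against 59.1% of all genes.

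The proteins of the cytosolic ribosome and the nuclear-encoded subunits of the respiratory chain had more negative medians. All 81 cytosolic ribosomal protein genes tested were below 0, with a median of -0.86, and 44 had an unadjusted p under 0.05. All 81 respiratory chain genes tested were below 0, with a median of -0.81, and 53 had an unadjusted p under 0.05. Of all genes tested, 52.8% were below 0 and 7.81% were lower at that p. Without WT 5 the medians were -0.58 with 41 of 81 called lower and -0.61 with 56 of 79 called lower, against 6.32% of all genes tested. After the coding length correction the medians were -0.50 and -0.42, against -0.35 for the 77 genes.

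In the liver few of the 77 genes differed, while the tissue had many called genes (251 lower and 582 higher of 14966 tested). The sums were 2173 and 1995 CPM in the KI livers and 2026, 1953, 2091, 1946 and 2118 CPM in the WT livers, 2084 ± 126 (SD, n = 2) and 2027 ± 78.2 (SD, n = 5), and the genotypes overlapped. None of the 77 was called lower, against 1.68% of all genes, and 1 was called higher (1.3%), against 3.89%. At an unadjusted p under 0.05, 0 were lower (against 8.41%) and 6 higher (7.79%, against 9.49%). Both KI livers were above all WT livers in 9 genes (11.7%, against 13%) and below them in 3 (3.9%, against 11.3%). The median log2 fold change was 0.05, against -0.02 over all genes, and 27 genes were below 0 (35.1%, against 53.2%) and 50 above.

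The called gene was Mrpl33, the same gene that had the most negative brain value. It was at 26.6 and 27.1 CPM in the KI livers and at 22.02, 18.4, 21.6, 19.1 and 19.5 CPM in the WT livers, with no overlap. It rose by a log2 fold change of 0.42 ± 0.11, with an adjusted p of 0.0824 by edgeR's quasi-likelihood test. The call was lost at a threshold of 0.05, with a length correction, with sex as a covariate, and without KI 1, KI 2, WT 2 or WT 5. The other genes with the most positive values were Mrpl54 (0.32 ± 0.12), Mrps11 (0.31), which overlaps Mrpl46, Mrps15 (0.30 ± 0.10) and Mrps18c (0.30), each with an adjusted p above the threshold.

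The most negative liver value was that of Mrps36 (-0.58 ± 0.55), which was at 0.405 and 0.370 CPM in the KI livers and at 0.491, 0.408, 1.13, 0.408 and 0.481 CPM in the WT livers. WT 3 was far above the others and the rest were close. Mrpl49 (-0.35 ± 0.16), Mrps27 (-0.22), Mrpl48 (-0.20) and Mrpl4 (-0.15) followed, with 0 of them at an unadjusted p under 0.05.

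In the skin no gene of the 77 was called, and the shift was small and larger in 1 of the 2 KI mice. The sums were 2665 and 3038 CPM in the KI skins and 3191, 2869, 3409, 3000 and 2922 CPM in the WT skins, 2851 ± 263 (SD, n = 2) and 3078 ± 221 (SD, n = 5). KI 1 was below every WT skin and KI 2 was inside the WT range. Of 16163 genes tested, 0.0% were called lower and 0.0247% higher. Of the 77 genes, 69 were below 0 on the log2 scale (89.6%, against 56.7%), with a median of -0.11, against -0.03 over all genes. The median was 0.03 without KI 1 and -0.22 without KI 2. In KI 1, 72 of the 77 genes were below the WT median, and in KI 2, 44, as in WT 5. Both KI skins were below all WT skins in 7 genes (9.09%, against 4.84%) and above them in 0 (against 4.91%).

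At an unadjusted p under 0.05 2 genes were lower in the skin (2.6%, against 1.68%) and 0 higher (against 2.89%). Mrps14 was at 37.4 and 35.3 CPM in the KI skins and at 54.8, 47.8, 47.0, 45.3 and 41.7 CPM in the WT skins (-0.38 ± 0.13, adjusted p 0.951). Mrps25, a small subunit protein with no bacterial counterpart, was at 24.1 and 26.7 CPM in the KI skins and at 34.1, 32.1, 34.3, 27.6 and 33.8 CPM in the WT skins (-0.35 ± 0.13, adjusted p 0.999). In both genes the groups did not overlap. Mrpl49 (-0.34), Mrps22 (-0.31) and Mrpl55 (-0.29) came next. The most positive were Mrps2 (0.15), Mrps18a (0.05), Mrps31 (0.03), Mrps26 (0.01) and Mrpl22 (0.01), all of which turned below 0 with sex as a covariate.

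**Figure D4:**
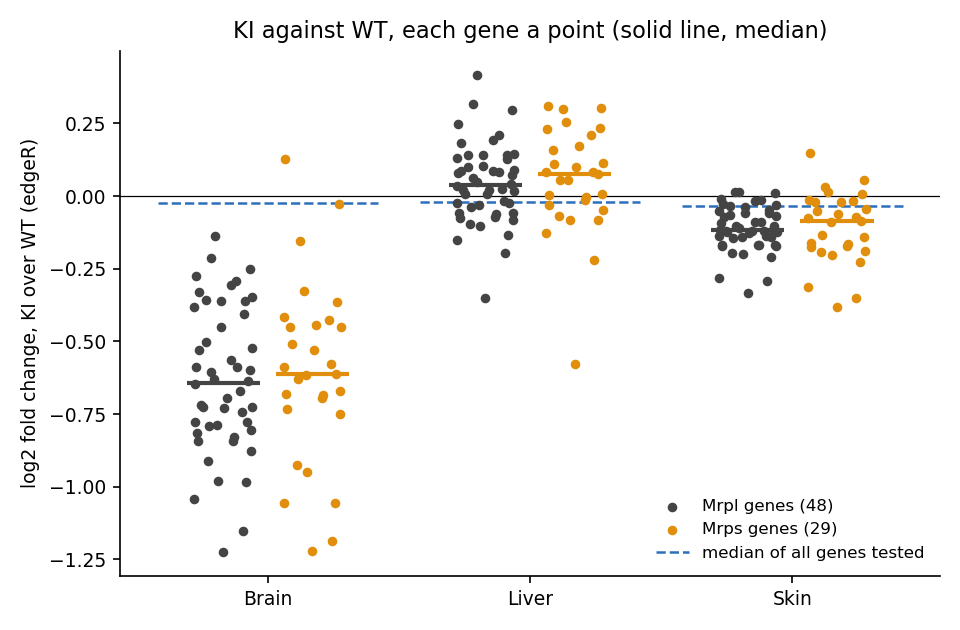
log2 fold change, KI over WT, of each of the 77 genes in brain, liver and skin, with the median of the 77 as a solid line. The brain median is -0.63, the liver median 0.05 and the skin median -0.11.

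The KI effect of 1 tissue was tested against that of another in a fit of all 21 libraries. For 13 of the 77 genes (16.9%) the KI effect was more negative in the brain than in the liver at an adjusted p under 0.1, against 1.77% of 18062 genes tested, and for 0 it was more positive, against 1.05%. At an unadjusted p under 0.05, 38 (49.4%) were more negative in the brain, against 7.25%, and 0 more positive, against 7.89%. The median of the difference was -0.57, against 0.10 over all genes. The most negative was Mrpl33, at -1.54 ± 0.29 (log2, SE; adjusted p 0.0288), followed by Mrps18c (-1.42 ± 0.30, adjusted p 0.0335) and Mrps33 (-1.32 ± 0.30, adjusted p 0.0430). Mrpl32 (-1.02 ± 0.22, adjusted p 0.0335) and Mrpl20 (-0.91 ± 0.21, adjusted p 0.0417) were also called. For these genes the liver values were near or above 0, whereas the brain values were near -1.

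Without KI 1 or without KI 2 there were 0 such calls. Without WT 1 there were 5, without WT 2 there were 6 and without WT 5 there were 22, and with the length correction there were 2, of which Mrpl33 had an adjusted p of 0.0247. The share of all genes called under each of these settings is not given here, so the counts cannot be set against it. Between brain and skin 0 genes were called (0.0% of all genes tested in either direction), with 23 more negative in the brain at an unadjusted p under 0.05 (29.9%, against 4.12%), 0 more positive (against 3.29%) and a median of -0.41. Between liver and skin 0 of the 77 were called, against 0.0332% of all genes lower in the liver effect and 0.0664% higher. At an unadjusted p under 0.05, 0 were lower there (against 3.11%) and 1 higher (1.3%, against 2.44%), with a median of 0.11.

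The levels of the 77 genes in WT tissue were compared as CPM per kilobase of transcript, the median of 5 mice. They ran from 1.32 to 197 in the brain (median 24.8), from 0.97 to 149 in the liver (median 27.4) and from 1.53 to 152 in the skin (median 27.7). The highest level was 149 times the lowest in the brain, 154 times in the liver and 99.0 times in the skin. The lowest in each tissue was Mrps36, whose product is not placed in the ribosome. These ratios are therefore not the range among parts of the ribosome, which is narrower. Mrpl52 was the highest in every tissue, at 197, 149 and 152 in brain, liver and skin. Mrpl20 (143) and Mrpl11 (96.9), the counterpart of bacterial L11 at the factor binding site, followed in the brain, with Mrpl54 (79.4) and Mrpl43 (72.6) next.

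In the liver Mrpl20 (79.9), Mrpl54 (79.5), Mrpl12 (69.5), the counterpart of L12 in the stalk, and Mrpl34 (59.5) followed Mrpl52, and the levels of Mrpl20 and Mrpl54 there cannot be ordered. In the skin Mrpl54 (107), Mrpl20 (65.8), Mrps21 (64.2) and Mrpl53 (57.3) followed. Mrps36 was the lowest in each tissue, at 1.32, 0.97 and 1.53, after which came Mrpl48 (3.57) and Mrps5 (3.73) in the brain, Mrpl48 (2.73) and Mrps33 (3.02) in the liver and Mrps5 (2.93) and Mrpl47 (3.08) in the skin. Levels per length depend on the transcript taken. Mrps21 has 488 bases in the transcript used and 1282 in all its annotated exons, and Mrps10 has 1018 and 8079. Across the 77 genes the log2 levels went together, with Pearson's r of 0.886 for brain and liver, 0.915 for brain and skin and 0.947 for liver and skin. The points are genes of the same mice and share their length, so the values are a description.

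**Figure D5:**
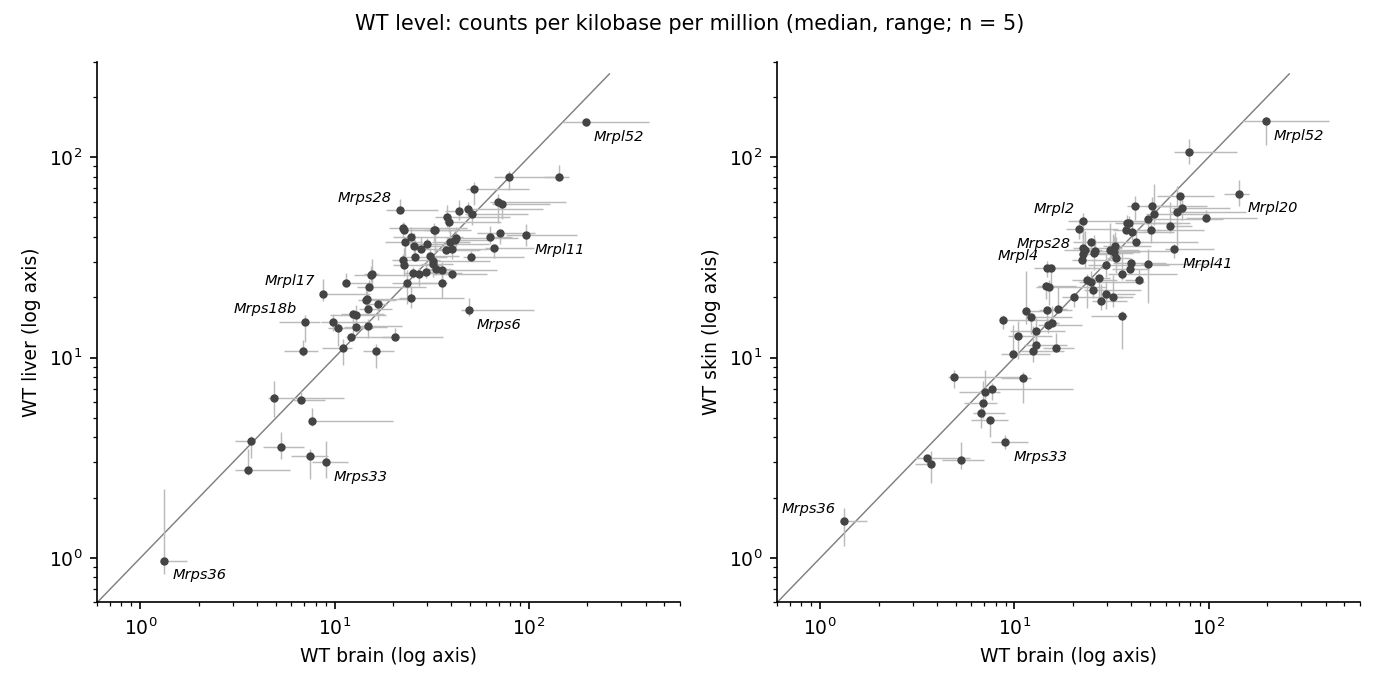
Level of each of the 77 genes in WT liver and WT skin against WT brain, as CPM per kilobase (median of 5 mice, log axes). The genes lie along a line from Mrps36 at 1.32 in the brain to Mrpl52 at 197.

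The share of the 77 genes called between WT tissues was below that of all genes in 5 of 6 counts and near it for brain above skin, which is a description. Between brain and liver 22 were called lower in the brain (28.6%, against 40.2% of 17071 genes tested) and 24 higher (31.2%, against 43.3%). With a log2 difference of 1 or more the counts were 3 lower and 6 higher, against 29.0% and 32.3% of all genes. Between brain and skin 14 were lower in the brain (18.2%, against 40.3%) and 30 higher (39.0%, against 39.1%), with 0 and 6 at a difference of 1 or more, against 28.4% and 25.5%. Between liver and skin 13 were lower in the liver (16.9%, against 39.8%) and 22 higher (28.6%, against 32.5%), with 0 and 2 at a difference of 1 or more, against 27.1% and 18.5%. Without WT 5 the lower and higher calls among the 77 were 33 and 21 for brain and liver and 27 and 23 for brain and skin. The split of the 77 thus moved toward lower brain levels. The shares of all genes called without WT 5 are not given here, so whether other genes moved likewise is not shown.

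Higher in the brain than in the liver were Mrps6 (1.79 ± 0.23, adjusted p 2.15e-06), the counterpart of S6, Mrps33 (1.58 ± 0.18, adjusted p 5.16e-07) and Mrpl11 (1.38 ± 0.18, adjusted p 3.79e-06). Mrps6 ran from 38.1 to 89.8 CPM in the brain and from 13.7 to 16.7 CPM in the liver. Its span overlaps that of Slc5a3, and the effect of this on its counts was not tested. Mrps33 ran from 8.43 to 13.04 CPM in the brain and from 2.79 to 4.22 CPM in the liver, with no overlap. Lower in the brain were Mrps28 (-1.23 ± 0.14, adjusted p 5.95e-07), with 14.4 to 26.6 CPM against 41.8 to 48.2 CPM, Mrpl17 (-1.08 ± 0.15, adjusted p 5.46e-06) and Mrps18b (-1.08 ± 0.17, adjusted p 1.7e-05).

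Against the skin, the brain was higher in Mrps33 (1.27 ± 0.18), Mrpl20 (1.09 ± 0.11, 89.8 to 121 CPM against 42.9 to 57.3 CPM) and Mrpl41 (1.09 ± 0.14). It was lower in Mrps28 (-0.87 ± 0.14), Mrpl2 (-0.80 ± 0.21) and Mrpl4 (-0.72 ± 0.14). The liver was above the skin in Mrpl50 (1.10 ± 0.09, adjusted p 2e-08), which ran from 103 to 129 CPM in the liver and from 49.8 to 58.4 CPM in the skin, and in Mrps18b (1.02 ± 0.17) and Mrpl1 (0.88 ± 0.13). It was below the skin in Mrps6 (-0.72 ± 0.22), Mrpl33 (-0.61 ± 0.16) and Mrps21 (-0.59 ± 0.16).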

How the data were processed

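Total RNA of brain, liver and skin of 2 KI and 5 WT newborns was sequenced as paired-end TruSeq RNA v2 libraries. Per the study's methods and the submitters' processing notes, reads were aligned to mm9 with TopHat2 and counted with HTSeq. Versions, annotation and the strand setting of the counting are not given in the sources used here. The authors deposited raw counts per gene symbol, not normalized, 1 table per library. The summary lines of each table (reads not assigned, ambiguous or mapped to several places) were left out, and 80.5% to 87.6% of the uniquely aligned reads were on genes, with 1.15% to 2.19% ambiguous.

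Within each tissue, counts of all genes were filtered with filterByExpr, scaled by TMM and tested in R 4.3.3 by edgeR 4.0.16 (quasi-likelihood test), with Benjamini-Hochberg adjustment over all genes tested and calls at an adjusted p under 0.1. Levels in the KI comparisons are CPM on TMM library sizes set within a tissue, so they are not compared between tissues. Differences of the KI effect between tissues were contrasts in 1 fit of all 21 libraries, and WT tissues were compared over 15 WT libraries. The 3 tissues come from the same mice, and these fits take the libraries as independent. With the mouse as a block, no count of calls moved by over 1.5 times. Gene positions and lengths were those of GENCODE vM1 on NCBIM37 (mm9), by the transcript with the longest coding sequence. Motifs and start regions were read from RefSeq on GRCm38.p6. Background shares give the percentage of all genes tested that met the same criterion.

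The alternatives were DESeq2 1.42.0, its size factors, no filter, a threshold of 0.05, the replicate number as a block, male sex as a covariate, a loess correction for transcript length (span 0.3, degree 1), a fit of all 21 libraries and each mouse left out in turn. Correction by coding length, combinations of settings without WT 5 and the count against WT 1 to 4 were chosen after seeing the data. The genes and lists were chosen with earlier results of these data known. Genes named were, per tissue, the 5 most negative and 5 most positive fold changes, any called gene, the 5 highest and 3 lowest WT levels, the 3 largest WT differences each way, up to 5 called differences of effect, Mrpl40, Mrps36 and up to 3 genes per other list. Mrp genes without a RefSeq window have no motif result.

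Same-numbered KI and WT libraries, after the genotype means were removed, had mean correlations across genes of -0.0245 (brain), -0.0410 (liver) and 0.101 (skin) over 2 pairs, so the numbers were not taken to pair the mice. On simulated counts the brain step recovered 32% of 2-fold and 88% of 4-fold changes with 13 false calls among 16125 genes. Tables were joined with pandas 2.3.3 and numpy 2.4.6 under Python 3.11.15, and plots drawn with matplotlib 3.10.9.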

Additional observations from a re-analysis of the deposited data

Results flagged for a closer look

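In groups of 5 WT libraries, the gap between the highest or lowest library and its nearest neighbour was divided by the range of the group, and values over 0.710 were noted; chance alone gives this in about 1 in 20 groups. In the WT brain 40 of the 77 genes passed this limit with WT 5 the highest and 1 with WT 1. The summed level passed it with 0.735. The share of all genes that pass the limit is not given here for any tissue. Whether the counts are particular to the 77 genes is therefore not shown. Among the genes named for a brain result, WT 5 was the highest with ratios of 0.732 for Mrpl11, 0.904 for Mrpl17, 0.858 for Mrpl2, 0.922 for Mrpl37, 0.892 for Mrpl38, 0.847 for Mrpl4, 0.826 for Mrpl43, 0.827 for Mrpl48, 0.817 for Mrpl52, 0.800 for Mrpl54, 0.796 for Mrps36 and 0.775 for Mrps6. The largest ratio of all 77 was that of Mrps26 (0.975). WT 5 was also the brain with the largest share of counts in genes with transcripts under 1000 bases (7.95%) and the smallest library (26549326 counts), and the part of these in the result was not tested.

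In the liver 7 and in the skin 4 of the 77 genes passed the limit. The genes share the same WT libraries, so the chance rate for a single group does not give an expected count over genes. Among the genes named for these tissues, in the WT liver WT 3 was the highest with ratios of 0.897 for Mrpl20 and 0.884 for Mrps36, and in the WT skin WT 3 was the highest with 0.758 for Mrps2.

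The KI effect differed between brain and liver, by the test of the difference itself, for 13 genes (log2, brain minus liver): Mrpl33 -1.54, Mrps18c -1.42, Mrps33 -1.32, Mrps21 -1.16, Mrps16 -1.08, Mrps14 -1.03, Mrpl32 -1.02, Mrpl21 -0.97, Mrpl42 -0.94, Mrpl20 -0.91, Mrpl41 -0.88, Mrps28 -0.88 and Mrpl40 -0.72. With the length correction 2 were called.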

How the results depend on the processing

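In the brain 0 genes were called lower by the main test with all 7 libraries. With the replicate number as a block there were 48 (against 8.47% of all genes tested). That KI effect rests only on the WT brains that share a number with a KI brain. DESeq2 called 21 (3.03%) and the fit of all 21 libraries 24 (2.44%). Without WT 5 there were 36 (6.32%). In settings chosen after seeing the data, each without WT 5, there were 20 with the transcript length correction (3.29%) and 19 with the coding length correction (3.4%). Also chosen after seeing the data and without WT 5, DESeq2 gave 49 and the block 36, for which no share over all genes is given here. One of the 77, Mrpl43, was called higher with the transcript length correction without WT 5 (1 gene). The brain median of -0.63 was -0.31 with the transcript length correction, -0.23 with it and without WT 5 and -0.22 with the coding length correction without WT 5. It ran from -0.69 to -0.40 over the mice left out in turn. The count at an unadjusted p under 0.05 was 37 (against 7.81% of all genes tested), and 60 with the block (13.3%). It was 56 with DESeq2 without WT 5 and 57 with the block without WT 5, without a share over all genes here. Without WT 5 in the main test it was 55 (12.1%). The brain fits that left out a KI mouse kept 1 KI brain, so their counts by p are not given here. The block fits rest on 2 numbers shared by KI and WT and the samples share only a number, so a pairing was not shown. A WT library whose number no KI library has does not enter their estimate of the KI effect. In the brain, the WT libraries left out in this way include those that lay nearest to the KI brains. The block counts are therefore not results of all 7 libraries.

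In the liver the 1 higher call was 0 at an adjusted p under 0.05, with the block, with male sex as a covariate, with the length correction and in the fit of all libraries, 2 with DESeq2, and 0 to 1 over the mice left out. The lower calls ran from 0 to 1. The liver median was -0.028 with the length correction and ran from 0.0040 to 0.11 over the mice left out, and the skin median ran from -0.22 to 0.027. For brain minus liver the 13 calls were 8 at an adjusted p under 0.05, 2 with the length correction and 0 to 22 over the mice left out. For liver minus skin the median of 0.11 was 0.029 with the length correction and ran from -0.050 to 0.27. The WT brain and skin calls lower in the brain ran from 10 to 27. Shares over all genes are not given here for these altered settings, and the causes were not tested.

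Of the 77 genes, the brain value changed sign in 1 without WT 5, in 5 with the transcript length correction, in 2 with the coding length correction, and without WT 5 in 15 and 13 with these. Mrpl43 went from -0.36 to 0.27 (adjusted p 0.0964) with the transcript length correction without WT 5, and Mrpl2 from -0.38 to 0.23. Of the genes followed under each setting, Mrpl37 was at 0.035 with the transcript length correction without WT 5. Mrpl38 was at 0.10 with the length correction, 0.042 without WT 5, 0.17 with both, and without WT 5 at 0.030 with coding length, 0.032 with DESeq2 and 0.012 with the block. Mrps18b was at 0.013 with male sex, 0.30 with transcript length, 0.12 with coding length, 0.16 and 0.011 with these without WT 5, 0.056 in the fit of all libraries, and -0.092 to 0.073 over the mice left out. In the skin, male sex gave Mrpl22 -0.042, Mrps18a -0.039, Mrps2 -0.010, Mrps26 -0.033 and Mrps31 -0.011. Over the skin mice left out Mrpl22 ran from -0.022 to 0.11, Mrps18a from -0.18 to 0.30, Mrps2 from -0.063 to 0.37, Mrps26 from -0.15 to 0.20 and Mrps31 from -0.00040 to 0.086.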
